A study of Solanum lycopersicum with 39 samples.

Results

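Leaves of the tomato cultivar M82 were compared after 24 h at 42 °C (heat 24 h) and after 1 day back under optimal conditions that followed those 24 h (heat recovery). The comparison used 6 of the 39 libraries of the series, with 3 libraries in each group, and it covered the 18923 of 34075 listed genes that reached 1 FPKM in 3 or more of the 18 heat libraries. FPKM is a count of a gene's sequenced fragments relative to transcript length and to all mapped fragments of the library. The plants were 38 days old per the sample labels, and the age given in the methods of the study is younger. Heat was applied at 90% relative humidity, and the optimal conditions, which untreated plants (heat 0 h) also had, were 25 °C, 70% humidity and a day of 16 h light and 8 h dark. Temperature and humidity therefore changed together between the groups. By the order of treatment, recovery plants would also be 1 day older than plants of heat 24 h, although the labels give 38 days for both. No plants kept at optimal conditions for the same time were among the samples. The labels name no transgenic or edited line among the heat samples. The methods call the 3 libraries of a group biological replicates, and the labels do not say whether a library held leaves of a single plant.

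During heat stress, plant cells make heat shock proteins, chaperones that bind misfolded proteins, under the control of heat shock factors. Leaves under heat also shift their hormones, among them abscisic acid, and their antioxidant enzymes. Photosynthesis is among the processes most sensitive to heat. Light is collected by antenna complexes of chlorophyll a/b-binding proteins, encoded by the nuclear LHCb genes for photosystem II and LHCa genes for photosystem I. After heat ends, chaperone transcripts are known to decline and photosynthesis genes to be expressed again, and the comparison shows how far each had moved after 1 day.

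Relative depth was similar across the libraries of heat 24 h and higher in replicates 2 and 3 of recovery (1.23 and 1.34). It was estimated from the step of low values, in genes under 0.5 FPKM, and ranged from 0.991 to 1.06 of the median library at 24 h and from 1.01 to 1.34 in recovery. Absolute depth is unknown, since the table holds no fragment counts. FPKM of a library summed to between 614035 and 705675 at 24 h and to between 598343 and 777259 in recovery. On the log2(FPKM + 1) scale, the recovery libraries correlated with each other at Pearson's r of 0.967 to 0.969 over genes, and with libraries of heat 24 h at 0.716 to 0.814. Replicate 3 of heat 24 h stood apart from its group, with r of 0.918 and 0.938 against the other 2, which correlated at 0.958. It listed 14492 genes with at least 1 FPKM, against 15762 and 16584 in the others. In recovery, replicate 3 listed the fewest such genes, 15120 against 16105 and 15954. Its 50 highest genes held 37.65% of the FPKM sum, against 32.18% and 28.35% in replicates 1 and 2. The defining transcripts of leaf mesophyll, the antenna genes, were present in every library of both groups, although 1 of them was listed at 0 in 2 libraries of heat 24 h.

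Between heat 24 h and recovery, 6138 genes were differentially expressed. In recovery 3034 genes were higher, 16.0% of those tested, and 3104 were lower, 16.4%. The test was limma on log2(FPKM + 1), fitted to all 18 heat libraries with 1 mean for each of 6 groups, and calls needed a Benjamini-Hochberg adjusted p of 0.05 or less together with a log2 fold change of 1 or more in either direction. Over all genes, log2 fold changes had a median of 0. Of the called genes, 6002 had libraries that did not overlap between the groups. Among all genes tested, every recovery library lay above every library of heat 24 h in 26.7% and below in 28.8%. Genes with a large called change mostly separate in this way, so the count is no further evidence for the calls. Changes of at least 4 on the log2 scale were found in 76 genes that rose and 118 that fell, and changes of at least 6 in 7 and 27 genes. Replicate 3 of heat 24 h mattered most for the rises: without it 2217 genes were higher and 3296 lower. For the falls it was replicate 3 of recovery: without it 3468 genes were higher and 2633 lower.

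**Figure D1:**
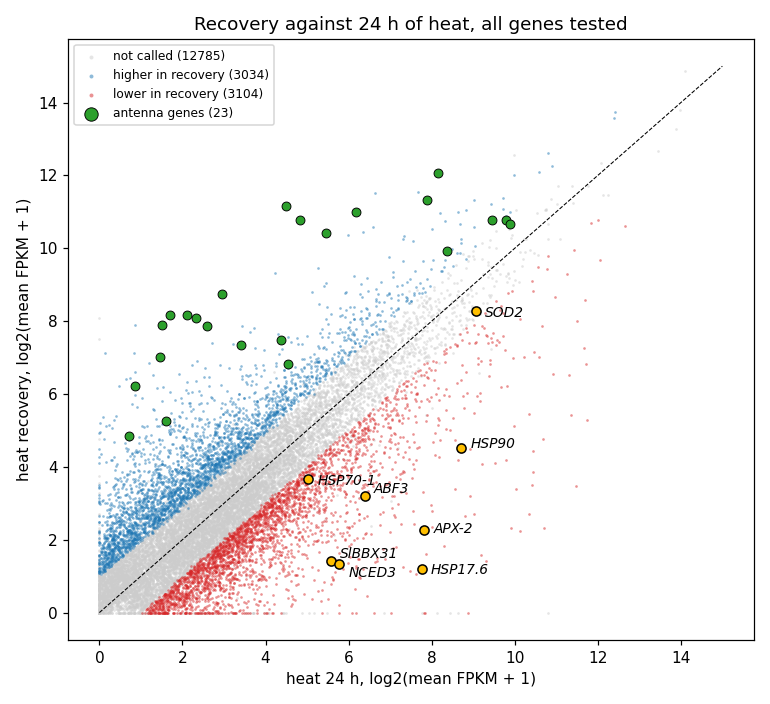
Each point is a gene, with log2(mean FPKM + 1) at heat 24 h on the x axis and in recovery on the y axis. Blue genes (3034) were higher in recovery, red genes (3104) were lower, and the dashed line marks equal levels. The 23 antenna genes (green) lie above the line, while HSP17.6, HSP90, APX-2, SlBBX31 and NCED3 (orange) lie far below it.

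The largest changes included genes for which the sources used here give only an ID. Solyc07g008210.4 on chromosome 7 had the largest rise among called genes with groups that did not overlap, with 0.0609, 1.56 and 0.815 FPKM in replicates 1 to 3 of heat 24 h and 263, 303 and 146 FPKM in recovery. It rose by 7.06 on the log2 scale (standard error 0.60, limma adjusted p = 5.19e-07), and had 103 to 158 FPKM at 0 h. Solyc09g082660.3 on chromosome 9 rose from values of 0 to 0.237 FPKM to 59.6, 255 and 98.0 FPKM, by 6.72 (standard error 0.71, limma adjusted p = 3.72e-06). The next was an LHCb1 gene, and 6 of the 10 largest rises were LHCb genes. The 10 largest falls held no gene that the study names. The first of them, Solyc07g005300.1, had 2986, 3499 and 3613 FPKM at 24 h and 0, 335 and 0 FPKM in recovery. The same gene was listed at 0, 1167 and 0 FPKM at 0 h, so its zeros can be failed estimates, and its call was lost without any 1 of 5 of the 6 libraries (limma adjusted p = 0.075 to 0.133). Solyc07g005420.2 had 369, 851 and 195 FPKM at 24 h and was listed at 0 in every library of recovery and of 0 h. In all, 104 genes that were lower in recovery were listed at 0 in its 3 libraries, and 40 genes that were higher were listed at 0 in all libraries of heat 24 h.

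The study describes 206 tomato genes by name, chosen for their response in overexpression and knockout lines of SlBBX31 in another cultivar, or as markers. They were grouped here into 15 lists by role and a rest. Of these genes 185 passed the filter on low values, and 65 were higher in recovery, 25 were lower and 95 were not called, beside 16.0% higher and 16.4% lower over all genes. Their median log2 fold change was 0.40, against 0 over all genes.

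The antenna genes rose together in recovery. All 13 LHCb genes were higher than at 24 h, with a median log2 fold change of 5.31 and a range from 1.43 to 6.66. Of the 10 genes that the study places among LHCa, 9 were higher, with a median over the 10 of 3.89 and a range from 0.86 to 5.72. These shares stand beside 16.0% of all genes called higher. In a limma fit of the 6 libraries alone, LHCb2 Solyc12g006140.2, LHCb4, LHCb6 and LHCa2 were not called (adjusted p = 0.0501 to 0.128). In 20 of the 23 genes every recovery library lay above every library of heat 24 h, which was so in 26.7% of all genes tested, while the reverse was so in 28.8%. Together the 23 genes held 0.25% to 0.727% of the FPKM sum of a library at 24 h and 1.85% to 4.53% in recovery, against 4.84% to 7.00% at 0 h.

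The 8 copies of LHCb1, the most abundant antenna protein of photosystem II, all rose, by 4.88 to 6.66. Their IDs run from Solyc02g070940.1 to Solyc02g071030.2 on chromosome 2. The largest rise was that of Solyc02g071030.2, which had 38.5, 15.2 and 11.2 FPKM at 24 h and 3622, 1006 and 2221 FPKM in recovery (log2 fold change 6.66, standard error 0.48, limma adjusted p = 1.17e-07). Every recovery library of this gene was more than an order of magnitude above every library of heat 24 h. Solyc02g071010.1 had 58.6, 12.6 and 11.5 FPKM at 24 h and 3139, 626 and 1466 FPKM in recovery. Solyc02g070940.1 had 163, 36.5 and 14.9 FPKM at 24 h and 3169, 987 and 1949 FPKM in recovery. These 3 copies were the ones with the highest levels in recovery. The lowest copy, Solyc02g070990.1, had 1.03, 1.30 and 0.0824 FPKM at 24 h and 164, 23.6 and 30.5 FPKM in recovery. The authors kept a single place for each read, so fragments of near-identical copies can be assigned to a neighbour, and levels of single copies are uncertain.

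Among the other antenna genes of photosystem II, LHCb3 (Solyc07g063600.3), the third protein of the major trimeric antenna, had 12.3, 6.24 and 1.63 FPKM at 24 h and 682, 206 and 397 FPKM in recovery. It rose by 5.92 (standard error 0.61, limma adjusted p = 3.18e-06). The 2 LHCb2 genes differed in level and in size of the rise. Solyc07g047850.3 had 437, 307 and 102 FPKM at 24 h and 6029, 2757 and 4026 FPKM in recovery, the highest recovery level of all antenna genes, with a log2 fold change of 4.08. Solyc12g006140.2 had 36.0, 20.6 and 9.87 FPKM at 24 h and 231, 26.1 and 77.8 FPKM in recovery. Its groups overlapped (exact permutation test, p = 0.2), and its call at 1.95 (limma adjusted p = 0.0263) was lost in 4 of the 6 fits that left out a library, with adjusted p of 0.0502 to 0.163. LHCb4 (Solyc09g014520.3) and LHCb6 (Solyc01g105030.3), the minor antenna proteins CP29 and CP24 that link the trimers to the core, changed least. LHCb4 had 922, 856 and 310 FPKM at 24 h and 2480, 1279 and 1508 FPKM in recovery, a rise by 1.43 (limma adjusted p = 0.0101). Without replicate 3 of heat 24 h, its value was 0.92 (adjusted p = 0.0659), and without replicate 1 of recovery 1.15 (adjusted p = 0.0553). LHCb6 had 507, 393 and 93.3 FPKM at 24 h and 1399, 636 and 868 FPKM in recovery, a rise by 1.79 (limma adjusted p = 0.00673). Its call was lost in a fit of the 6 libraries alone (adjusted p = 0.0576).

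The genes named LHCa showed the same spread of sizes. LHCa1 (Solyc05g056050.3) had 9.72, 4.60 and 0.758 FPKM at 24 h and 404, 107 and 190.5 FPKM in recovery, and rose by 5.42. Its neighbour by ID, Solyc05g056060.4, annotated as chlorophyll a-b binding protein 6A, rose by 4.13, from 17.1, 9.004 and 2.62 FPKM to 232, 103 and 145 FPKM. LHCa4 had a gene with high and a gene with low levels. Solyc03g115900.4 rose by 5.51, to 2124, 733 and 1240 FPKM, and Solyc06g069730.3 by 3.55, to 68.0, 12.9 and 30.8 FPKM. Of the 5 genes labelled LHCa3 by the study, Solyc03g005780.3 rose by 5.72, Solyc03g005760.1 by 3.91, Solyc08g067330.1 by 3.87 and Solyc12g011280.2 by 3.20. Annotations place 3 of these (Cab-3A and the Cab-3C pair) with the Cab-3 proteins, so the label may not describe photosystem I for each of them. The fifth, Solyc10g007690.3, was the antenna gene that was not called, with 1241, 1122 and 463 FPKM at 24 h and 2224, 1165 and 1496 FPKM in recovery (log2 fold change 0.86, limma adjusted p = 0.0639). It was called without replicate 1 of heat 24 h (1.12, adjusted p = 0.0326), without replicate 2 of heat 24 h (1.05, adjusted p = 0.0496) and without replicate 2 of recovery (1.08, adjusted p = 0.0467). LHCa2 (Solyc10g006230.3) had 1001, 1231 and 426 FPKM at 24 h and 2591, 1142 and 1522 FPKM in recovery. Its groups overlapped, and its call at 1.03 (limma adjusted p = 0.04) did not hold without replicate 3 of heat 24 h (0.57, adjusted p = 0.226), without replicate 1 of recovery (0.71, adjusted p = 0.187) or without replicate 3 of recovery (1.09, adjusted p = 0.0625).

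The libraries of a group differed in the same order across the antenna genes. In recovery, replicate 1 was the highest and replicate 2 the lowest in all 23 genes, with FPKM sums over the 23 genes of 35180, 12680 and 20690 in replicates 1 to 3. At 24 h, replicate 3 was the lowest in 22 of 23 genes, and the sums were 5130, 4187 and 1535. At 0 h, replicate 1 was the highest and replicate 3 the lowest in all 23 genes. The antenna genes of a library are thus no independent measurements. What sets the order within a group was not tested.

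**Figure D2:**
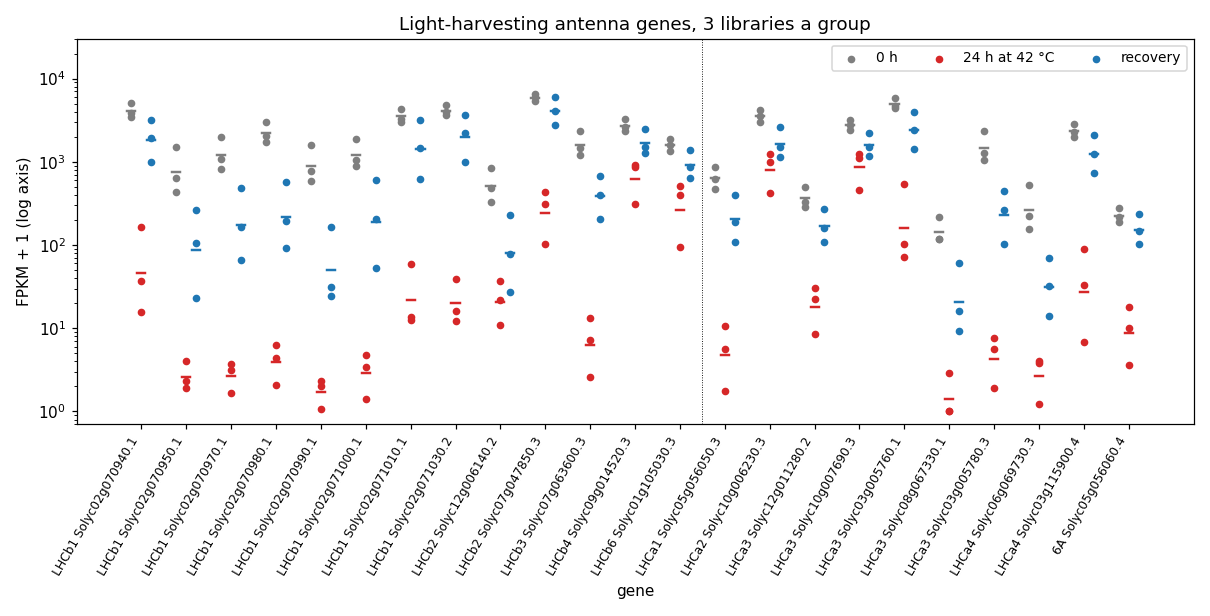
FPKM + 1 on a log axis for the 13 LHCb genes (left of the dotted line) and the 10 genes named LHCa (right), with each of 3 libraries a group as a point and the mean of log2(FPKM + 1) as a bar. All 23 genes had a higher mean in recovery (blue) than at 24 h (red), and in each the mean in recovery was below that of 0 h (grey) as deposited, which turned for 2 genes, Solyc07g047850.3 and Solyc05g056060.4, after median-ratio scaling.

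Against untreated leaves, all 23 antenna genes were lower at 24 h, and fewer of them were called lower in recovery. For these comparisons the scale mattered, since the median gene lay 0.55 below 0 h on the log2 scale at 24 h and 0.53 below it in recovery. With median-ratio scaling, which divides a library by the median over genes of its ratio to the geometric mean of all libraries, both medians were -0.02. Over all genes, 24 h against 0 h gave 9.31% of genes higher and 33.1% lower as deposited, and 17.8% and 19.6% after scaling. Recovery against 0 h gave 1.23% higher and 23.3% lower as deposited, and 5.89% and 7.73% after scaling. The calls at 24 h held with both scales. In recovery, 12 were called lower than at 0 h as deposited and 9 after scaling, and none was called higher. After scaling, LHCb2 Solyc07g047850.3 (0.13) and the 6A gene Solyc05g056060.4 (0.10) lay above 0 h and were not called. The 9 genes were 5 LHCb1 copies, LHCb2 Solyc12g006140.2, the Cab-3C pair Solyc08g067330.1 and Solyc03g005780.3, and LHCa4 Solyc06g069730.3. Their mean FPKM in recovery was 7.41% to 22.6% of the mean at 0 h as deposited. The other 14 genes were at 25.8% to 72.1% of it, with the highest share in LHCb2 Solyc07g047850.3. The comparisons with 0 h share libraries with the comparison of recovery and 24 h, so they are not separate evidence for it.

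Of 5 genes of the photosystem I core, 4 rose, beside 16.0% of all genes. They encode small nuclear-encoded subunits around the reaction centre. Subunit O (Solyc06g074200.4) had 795, 647 and 109.6 FPKM at 24 h and 3921, 1755 and 2091 FPKM in recovery (log2 fold change 2.66, standard error 0.56, limma adjusted p = 0.00108). A reaction center subunit without a number in its annotation (Solyc08g013670.3) rose by 2.81, subunit VI (Solyc12g044280.2) by 2.53 and subunit XI (Solyc06g082950.4) by 1.74. Subunit II (Solyc06g054260.1), which docks ferredoxin, had 1899, 1629 and 926 FPKM at 24 h and 3062, 1399 and 1596 FPKM in recovery, a difference of 0.42 (limma adjusted p = 0.365). Its groups overlapped, as they did for LHCa2 and LHCa3 Solyc10g007690.3. After median-ratio scaling none of the 5 was called different from 0 h in recovery.

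Of 6 genes of the study listed here under chlorophyll and chloroplast pigment enzymes, 4 rose and 0 fell by limma, beside 16.0% and 16.4% of all genes. At an unadjusted p under 0.05, 0 fell as well, beside 27.7% of all genes. The list also holds glycolate oxidase, a rhodanese-like protein and a lipid desaturase, so its name does not hold for every member. Both protochlorophyllide reductases, which catalyse the light-driven step of chlorophyll synthesis, were higher in recovery. The gene annotated as oxidoreductase 3 (Solyc10g006900.3) had 16.9, 17.4 and 6.21 FPKM at 24 h and 79.6, 40.8 and 51.9 FPKM in recovery, a rise by 2.08 (limma adjusted p = 0.000952), and its recovery libraries overlapped with 0 h. The other, Solyc12g013710.2, rose by 2.14 from 2.11, 1.46 and 0.550 FPKM to 16.4, 4.21 and 10.2 FPKM, which was 12.2% of its mean at 0 h. Its call was lost without replicate 3 of heat 24 h (adjusted p = 0.0502) or replicate 1 of recovery (adjusted p = 0.0607). Glycolate oxidase (Solyc10g007600.3), an enzyme of photorespiration, had 22.5, 21.4 and 10.7 FPKM at 24 h and 163, 90.6 and 72.0 FPKM in recovery. It rose by 2.49 and stayed at 23.2% of its mean at 0 h, below every library of 0 h. Rhodanese-like protein 4 (Solyc10g009570.3), which in Arabidopsis anchors ferredoxin-NADP reductase to thylakoids, rose by 2.35. Zeaxanthin epoxidase (Solyc02g090890.4), which converts zeaxanthin back to violaxanthin, had 44.5, 53.3 and 26.4 FPKM at 24 h and 44.96, 26.1 and 26.1 FPKM in recovery (-0.34, limma adjusted p = 0.372). The delta-7 desaturase of chloroplast galactolipids (Solyc03g116730.4) had a log2 fold change of 0.07 (adjusted p = 0.924). At 24 h these genes were at 43.6% and 25.6% of the mean at 0 h. Both were called lower than at 0 h as deposited, and after median-ratio scaling the desaturase was (-1.35, adjusted p = 0.0133) and zeaxanthin epoxidase was not (-0.57, adjusted p = 0.0704).

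Chaperone genes fell. The small heat shock protein gene HSP17.6 (Solyc08g062437.1) had 177, 194 and 276 FPKM at 24 h and 1.46, 1.40 and 0.952 FPKM in recovery. It changed by -6.56 on the log2 scale (standard error 0.61, limma adjusted p = 1.35e-06), and by -7.41 when mean FPKM were compared with no pseudocount added. At 0 h it had 0.499 to 0.842 FPKM, and recovery was not called different from it. HSP90 (Solyc08g079170.3) had 245, 240.5 and 775 FPKM at 24 h and 25.2, 26.1 and 14.8 FPKM in recovery, and fell by 4.00 on the log2 scale (standard error 0.42, limma adjusted p = 3.59e-06). Its recovery libraries lay below all libraries of 0 h, which had 44.1 to 48.7 FPKM, but the call against 0 h (-1.09) was lost after median-ratio scaling (-0.44, adjusted p = 0.519). HSP70-1 (Solyc09g011030.3) had 22.3, 21.9 and 50.7 FPKM at 24 h and 13.2, 12.8 and 9.37 FPKM in recovery. It fell by 1.25 on the log2 scale (limma adjusted p = 0.00855), and without replicate 3 of heat 24 h the value was -0.87 (adjusted p = 0.0549). The heat shock factor HSF24 (Solyc02g090820.3) had 12.0, 13.3 and 19.5 FPKM at 24 h and 15.7, 17.57 and 10.1 FPKM in recovery, and its groups overlapped (-0.05, limma adjusted p = 0.906). So 3 of 4 genes of this list were lower, beside 16.4% of all genes, and replicate 3 of heat 24 h had the highest value of all 4.

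SlBBX31 (Solyc06g063280.1), the B-box zinc-finger factor that the study is about, had 29.2, 35.4 and 76.1 FPKM at 24 h and 3.05, 1.29 and 0.733 FPKM in recovery. It fell by 4.12 on the log2 scale (standard error 0.39, limma adjusted p = 1.40e-06), and 109 called genes had a larger fall. Here too the highest library of heat 24 h was replicate 3. The recovery libraries overlapped with 0 h, where FPKM was 0.292 to 0.773, only through replicate 3. Against 0 h the log2 fold change in recovery was 0.8 as deposited (limma adjusted p = 0.111) and 1.05 after median-ratio scaling (adjusted p = 0.0803), so it was not called.

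**Figure D3:**
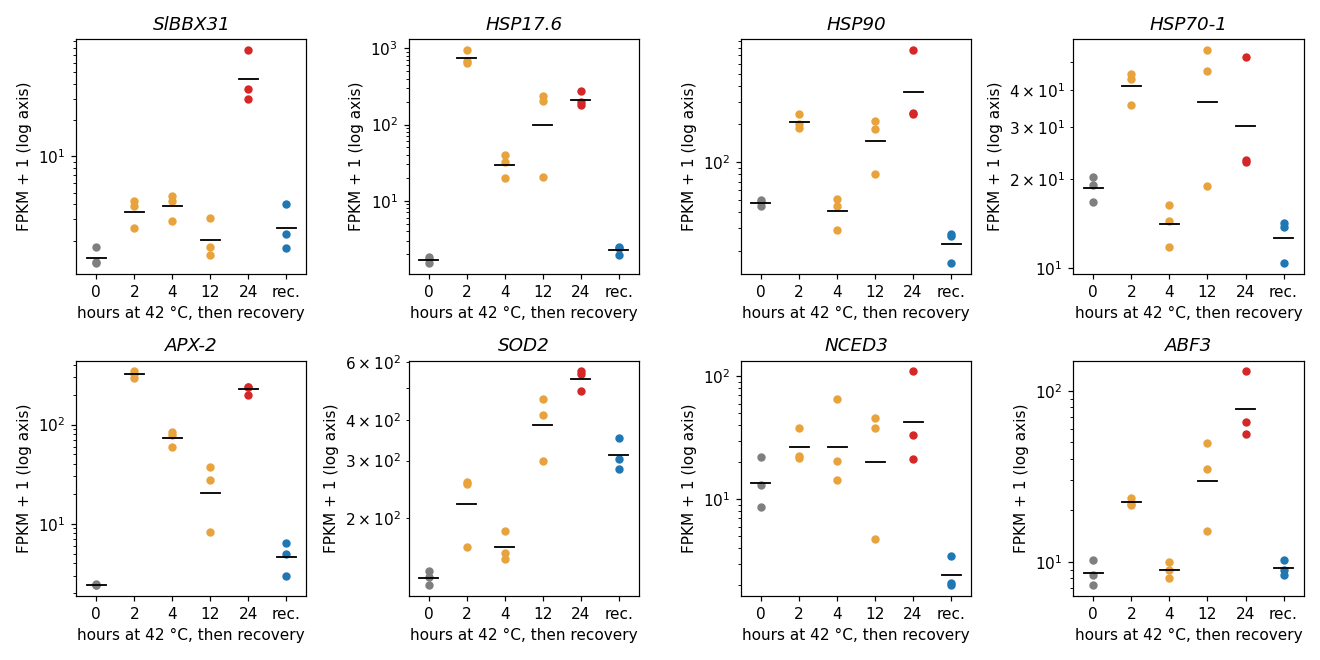
FPKM + 1 on a log axis for 8 genes in untreated leaves (grey), at 2, 4 and 12 h of heat (orange), at 24 h (red) and in recovery (blue, rec.), with 3 libraries a group as points and the mean of log2(FPKM + 1) as a bar. All 8 genes were lower in every recovery library than in every library of heat 24 h, and SOD2 was the gene that remained above 0 h in recovery by more than 1 on the log2 scale as deposited.

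The antioxidant genes did not move together. APX-2 (Solyc09g007270.3), an ascorbate peroxidase, which reduces hydrogen peroxide, had 239.6, 199.8 and 237 FPKM at 24 h and 5.46, 3.99 and 1.98 FPKM in recovery. It fell by 5.62 on the log2 scale (standard error 0.40, limma adjusted p = 1.17e-07), while its recovery libraries still lay above the 1.40 to 1.46 FPKM of 0 h. Against 0 h its log2 fold change was 0.91 as deposited (limma adjusted p = 0.0807) and 1.33 after median-ratio scaling (adjusted p = 0.0383). SOD2 (Solyc06g048410.4), a superoxide dismutase, had 562, 553 and 487 FPKM at 24 h and 351, 303 and 282 FPKM in recovery. The groups did not overlap, but the log2 fold change of -0.78 (limma adjusted p = 0.00821) was below the minimum size. Its recovery level was higher than at 0 h, where it had 124 to 137 FPKM, by 1.24 as deposited (adjusted p = 0.00065) and 1.91 after scaling. Peroxidase 47 (Solyc06g076630.3) rose by 1.27, from 2.71, 0.963 and 0.810 FPKM to 7.19, 3.58 and 3.98 FPKM. POD (Solyc01g105070.3) had at most 0.2 FPKM at 24 h and 0.331 to 0.558 FPKM in recovery, a log2 fold change of 0.46 (adjusted p = 0.208) that the pseudocount of 1 holds down: with a pseudocount of 0.1 it was 1.83 (adjusted p = 0.0292). Of 8 genes of this list 7 were tested, 1 was higher and 1 lower, beside 16.0% and 16.4% of all genes, and the median was -0.09. Thioredoxin H4-like (Solyc05g006870.3) had a value of 0.92 (limma adjusted p = 0.102) and was called higher with median-ratio scaling (1.03, adjusted p = 0.0409).

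Of 4 abscisic acid genes of the study 3 fell and 1 rose, beside 16.4% and 16.0% of all genes. NCED3 (Solyc07g056570.1), the 9-cis-epoxycarotenoid dioxygenase that controls the rate of abscisic acid synthesis, had 32.1, 20.4 and 109 FPKM at 24 h and 2.44, 1.08 and 0.999 FPKM in recovery. It fell by 4.14 on the log2 scale (standard error 0.76, limma adjusted p = 0.000419). Its recovery libraries also lay below the 7.66 to 21.2 FPKM of 0 h, with a log2 fold change of -2.48 against 0 h as deposited (adjusted p = 0.0179) and -1.97 after scaling (adjusted p = 0.0822). ABF3 (Solyc01g108080.4), a bZIP factor of the abscisic acid response, had 55.1, 64.8 and 129 FPKM at 24 h and 9.18, 7.36 and 7.98 FPKM in recovery, a fall by 3.1 (limma adjusted p = 7.50e-06). This level overlapped with 0 h. Xanthoxin dehydrogenase (Solyc04g071960.3), which acts downstream of NCED3 in the same synthesis, went the other way, with 3.27, 3.78 and 1.48 FPKM at 24 h and 9.04, 7.09 and 6.18 FPKM in recovery (1.18, limma adjusted p = 0.0205). Its call was lost without replicate 3 of heat 24 h (0.89, adjusted p = 0.0997) and without replicate 1 of recovery (1.04, adjusted p = 0.0739). The kinase SAPK2 (Solyc11g010130.3) is of the SnRK2 family, of which abscisic acid activates some members in rice. Its value of -1.02 (adjusted p = 0.0257) was at the edge of the call. This call was lost without either of replicates 1 and 2 of heat 24 h or either of replicates 2 and 3 of recovery (adjusted p = 0.0583 to 0.143).

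With a pseudocount of 1, limma called 0 of the 8 genes of ethylene, jasmonate and salicylate in either direction, beside 16.0% of all genes higher and 16.4% lower, and their median log2 fold change was 0.06. At an unadjusted p under 0.05, 1 of them was higher and 0 were lower, beside 26.1% and 27.7% of all genes. Ethylene is made by ACC synthases and ACC oxidases. ACC oxidase 1 (Solyc07g049530.3) had 49.5, 87.3 and 43.6 FPKM at 24 h and 173, 116 and 109 FPKM in recovery. Its groups did not overlap, and its value of 1.17 just missed the threshold (limma adjusted p = 0.051), which it passed after median-ratio scaling (adjusted p = 0.0141) and without replicate 2 of heat 24 h (1.47, adjusted p = 0.0304). ACO4 (Solyc02g081190.4) had 114, 278 and 183 FPKM at 24 h and 206, 186 and 154 FPKM in recovery, with a log2 fold change of 0.01. ACS6 (Solyc08g081550.4) had 1.52 to 3.51 FPKM at 24 h and 1.12 to 1.69 FPKM in recovery (-0.59, limma adjusted p = 0.208). ERF5 (Solyc03g093560.1), an ethylene response factor, had 5.41, 12.5 and 0 FPKM at 24 h and 3.05, 4.80 and 3.72 FPKM in recovery (0.12, limma adjusted p = 0.901). LOX1 (Solyc08g029000.3), a lipoxygenase, had 0.0513 to 0.292 FPKM at 24 h and 0.387 to 2.16 FPKM in recovery (0.81, limma adjusted p = 0.248), against 11.9 to 37.1 FPKM at 0 h. Every recovery library lay above those of 24 h, and with a pseudocount of 0.1 LOX1 was called higher (2.08, adjusted p = 0.0418). In recovery it was lower than at 0 h with both scales, by -3.46 as deposited and -2.91 after scaling. The jasmonic acid-amido synthetase JAR1-like (Solyc08g068490.3), which conjugates jasmonate with isoleucine, had 1.80 to 7.94 FPKM at 24 h, 5.73 to 7.41 FPKM in recovery and 31.2 to 32.9 FPKM at 0 h. It was not called against 24 h (0.48) and was lower than at 0 h with both scales. SAR DEFICIENT 1 (Solyc03g119250.4), a calmodulin-binding type regulator of salicylate synthesis in Arabidopsis, had a log2 fold change of -0.83, and its SAR DEFICIENT 1-like relative (Solyc12g036390.2) one of -0.45, and neither passed the test.

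Among protease inhibitors, chitinases and glucanases, 2 of 7 tested genes rose and 1 fell, beside 16.0% and 16.4% of all genes. The 2 that rose were a pair of glucan endo-1,3-beta-glucosidases, enzymes that cut callose and fungal walls. Solyc01g059965.1 had 1.98, 1.19 and 0.345 FPKM at 24 h and 36.0, 28.4 and 19.3 FPKM in recovery, a rise by 3.77 (standard error 0.67, limma adjusted p = 0.000291). Solyc01g060020.4 rose by 3.70, and its values were so close to those of the first in every library (34.97, 25.8 and 18.6 FPKM in recovery) that shared fragments cannot be told apart from equal expression. Both overlapped with 0 h in recovery. Kunitz trypsin inhibitor 2-like (Solyc03g098740.1) had 50.96, 42.1 and 68.6 FPKM at 24 h and 2.36, 0.872 and 3.15 FPKM in recovery, a fall by 4.18 on the log2 scale (limma adjusted p = 4.25e-05). Its neighbours by ID were not called: the DrTI-like Kunitz inhibitor (Solyc03g098720.3) had a value of -0.85 and aspartic protease inhibitor 1 (Solyc03g098780.2) one of -0.82. The latter had 2646, 1055 and 1635 FPKM at 24 h and 2524, 555 and 586 FPKM in recovery, and 1 recovery library lay within the range of heat 24 h. Of the chitinases, the acidic 26 kDa endochitinase (Solyc02g082920.4) had 375, 407 and 447 FPKM at 24 h and 346, 261 and 178 FPKM in recovery (-0.69, limma adjusted p = 0.188), and endochitinase 3-like (Solyc10g055820.3) a value of 0.28.

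Of 10 immune signalling genes, 1 rose and 2 fell, beside 16.0% and 16.4% of all genes. Calcium-binding protein CML30 (Solyc03g115930.3), a calmodulin-like protein, had 16.6, 14.04 and 25.04 FPKM at 24 h and 3.68, 4.15 and 2.14 FPKM in recovery, a fall by 2.17 on the log2 scale (limma adjusted p = 0.000332). It was also lower in recovery than at 0 h, by -1.62 as deposited and -1.05 after scaling. WRKY 81 (Solyc09g015770.3), a WRKY transcription factor, had 3.61, 7.55 and 1.99 FPKM at 24 h and 29.4, 27.0 and 10.04 FPKM in recovery (2.11, limma adjusted p = 0.027). Sigma factor binding protein 1 (Solyc01g096510.2), a WRKY partner in Arabidopsis, had 19.3, 35.6 and 9.02 FPKM at 24 h and 5.94, 4.86 and 10.2 FPKM in recovery (-1.34, limma adjusted p = 0.0323), and its groups overlapped. Each of these 2 calls was lost in 4 of the 6 fits that left out a library, with adjusted p of 0.0611 to 0.103 for WRKY 81 and 0.0708 to 0.159 for sigma factor binding protein 1. MAP kinase 4 (Solyc11g072630.2) had 2.78 to 3.56 FPKM at 24 h and 1.11 to 1.66 FPKM in recovery, and its value of -0.85 (limma adjusted p = 0.0266) was below the minimum size, which it passed with a pseudocount of 0.1 (-1.2, adjusted p = 0.0369). None of the other members was called. Receptor-like protein 15 (Solyc11g011180.3) had a value of -0.81 (limma adjusted p = 0.0652), WRKY 45 (Solyc08g067360.3) one of -0.43 and WRKY 51 (Solyc04g072070.3) one of -0.4. Values near 0 were found for the EIX1-annotated receptor-like protein (Solyc07g008620.1, 0.09), WRKY 46 (Solyc08g067340.4, 0.08) and glutamate receptor 2.8 (Solyc06g063210.3, 0.04). At an unadjusted p under 0.05, 1 of the 10 genes was higher and 4 were lower, beside 26.1% and 27.7% of all genes.

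Of 4 light and clock regulators 1 rose and 1 fell, beside 16.0% and 16.4% of all genes. APRR5 (Solyc03g081240.3), a pseudo-response regulator of the circadian clock, fell by 2.28 on the log2 scale. It had 7.66, 4.68 and 19.5 FPKM at 24 h and 0.930, 1.37 and 0.926 FPKM in recovery (limma adjusted p = 9.48e-05), against 0.813 to 0.890 FPKM at 0 h. CONSTANS-LIKE 16-like (Solyc05g009310.3), a B-box factor with a CCT domain, rose by 1.56, from 1.43, 1.17 and 0.0339 FPKM to 4.06, 5.72 and 3.13 FPKM (limma adjusted p = 0.0147). This call was lost without replicate 3 of heat 24 h (1.18, adjusted p = 0.079) or replicate 2 of recovery (1.38, adjusted p = 0.059). CONSTANS-LIKE 13 (Solyc09g074560.3) had 6.91 to 17.4 FPKM at 24 h and 20.9 to 24.5 FPKM in recovery, a value of 0.90 (adjusted p = 0.0336) below the minimum size, which it passed without replicate 2 of heat 24 h (1.19, adjusted p = 0.011). The clock factor PCL1 (Solyc06g076350.3) had a value of 0.28 (adjusted p = 0.404). Clock times of sampling are not given, and if recovery began at the end of the 24 h treatment, both groups were taken at the same time of day.

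Genes of the wall, the cuticle and lipid transfer were higher or not called. Of 13 tested, 5 rose and 0 fell by limma, beside 16.0% and 16.4% of all genes, with a median log2 fold change of 1.26. At an unadjusted p under 0.05, 5 were higher and 0 lower, beside 26.1% and 27.7% of all genes. 3-ketoacyl-CoA synthase 6 (Solyc05g009270.4), which elongates very-long-chain fatty acids for cuticular wax, had 0.0658, 0.628 and 0.156 FPKM at 24 h and 31.6, 30.4 and 12.7 FPKM in recovery. It rose by 4.26 (standard error 0.65, limma adjusted p = 8.58e-05), and by 6.46 as a log2 ratio of mean FPKM, to a level that overlapped with 0 h. A gene of the lipid-transfer superfamily (Solyc01g090965.1) rose by 3.71, from 2.65, 5.89 and 0.421 FPKM to 61.8, 44.3 and 27.1 FPKM, still below the 186 to 344 FPKM of 0 h. Pectinesterase inhibitor 4 (Solyc11g019910.1), which blocks demethylation of pectin, had 12.8, 19.5 and 0.334 FPKM at 24 h and 74.5, 116 and 75.6 FPKM in recovery (3.60, limma adjusted p = 0.000772), and every recovery library was above the 46.4 to 59.6 FPKM of 0 h. Arabinogalactan peptide 20-like (Solyc10g011730.3) rose by 2.55 and the GDSL esterase/lipase (Solyc02g071610.3) by 1.5. The members with a value below 0 were subtilisin-like protease SBT1.9 (Solyc10g084320.3), at -0.21, and pectinesterase 53 (Solyc12g008530.2), at -0.04, and neither was called. The other markers of epidermis and trichomes that could be tested did not pass the test. The wax ester synthase gene WSD1 (Solyc10g009430.3) had 0 to 0.117 FPKM at 24 h and 0.194 to 0.518 FPKM in recovery, methylketone synthase IIb (Solyc04g007200.4) 0 to 0.152 and 0 to 0.448 FPKM, and the EP1-like glycoprotein (Solyc07g062480.2) was too low to be tested. In bulk leaves, fewer cells of a type and less RNA per cell cannot be told apart.

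Of 8 tested genes of auxin, cytokinin and growth, 4 rose and 1 fell, beside 16.0% and 16.4% of all genes. Auxin-responsive SAUR50 (Solyc01g110570.3), of a family that promotes cell expansion, had 0.447, 0.444 and 0.213 FPKM at 24 h and 11.2, 10.6 and 2.13 FPKM in recovery, a rise by 2.48 (limma adjusted p = 0.00371). Fimbrin-2 (Solyc06g083070.3), which bundles actin, rose by 2.24, from 3.95, 3.84 and 1.87 FPKM to 28.7, 20.2 and 10.5 FPKM, and stayed below all libraries of 0 h. Homeobox protein 2 (Solyc02g077710.1) had a value of 1.78 (limma adjusted p = 0.0424) that was not called without replicate 3 of heat 24 h (0.95, adjusted p = 0.245) or without any 1 library of recovery (adjusted p = 0.0533 to 0.106). The fourth was the 15A-like auxin-induced protein (Solyc01g110940.3), at 1.04. Without replicate 3 of heat 24 h, or without replicate 1 of recovery, 2 genes of this list were called higher. Of all 18923 genes, 2217 and 2504 were called higher in these fits. Tubulin beta-8 (Solyc06g005910.4), a subunit of microtubules, fell by 1.73 on the log2 scale, from 13.4, 8.79 and 11.5 FPKM to 4.71, 1.41 and 2.47 FPKM (limma adjusted p = 0.000701). A cytokinin-activating phosphoribohydrolase (Solyc08g062820.3), which releases active cytokinin from its nucleotide, had a value of -0.63 (adjusted p = 0.0375), below the minimum size.

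Of 9 transporters tested, 2 rose and 2 fell, beside 16.0% and 16.4% of all genes. The hexose transporter (Solyc09g075820.3) had 20.4, 18.04 and 20.8 FPKM at 24 h and 5.09, 6.48 and 3.37 FPKM in recovery, a fall by 1.83 on the log2 scale (limma adjusted p = 0.00239). Lsi-1 (Solyc03g013340.3), a channel for silicic acid best known from roots, was listed at 0 in all libraries of heat 24 h and had 0.965, 2.97 and 0.896 FPKM in recovery (limma adjusted p = 0.0015). Without replicate 2 of recovery its value on the log2(FPKM + 1) scale was 0.95, below the minimum size. The amino acid transporter AVT1C (Solyc03g063040.4), at 1.02, and a vacuolar iron transporter homolog (Solyc04g150162.1), at -1.03, were at the edge of the call. The first lost it without replicate 3 of heat 24 h (0.52) or replicate 2 of recovery (0.82), and the second without replicate 1 of heat 24 h (-1), replicate 2 of heat 24 h (-0.82) or replicate 3 of recovery (-0.68). The vacuolar iron transporter homolog was also lower in recovery than at 0 h with both scales.

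**Figure D4:**
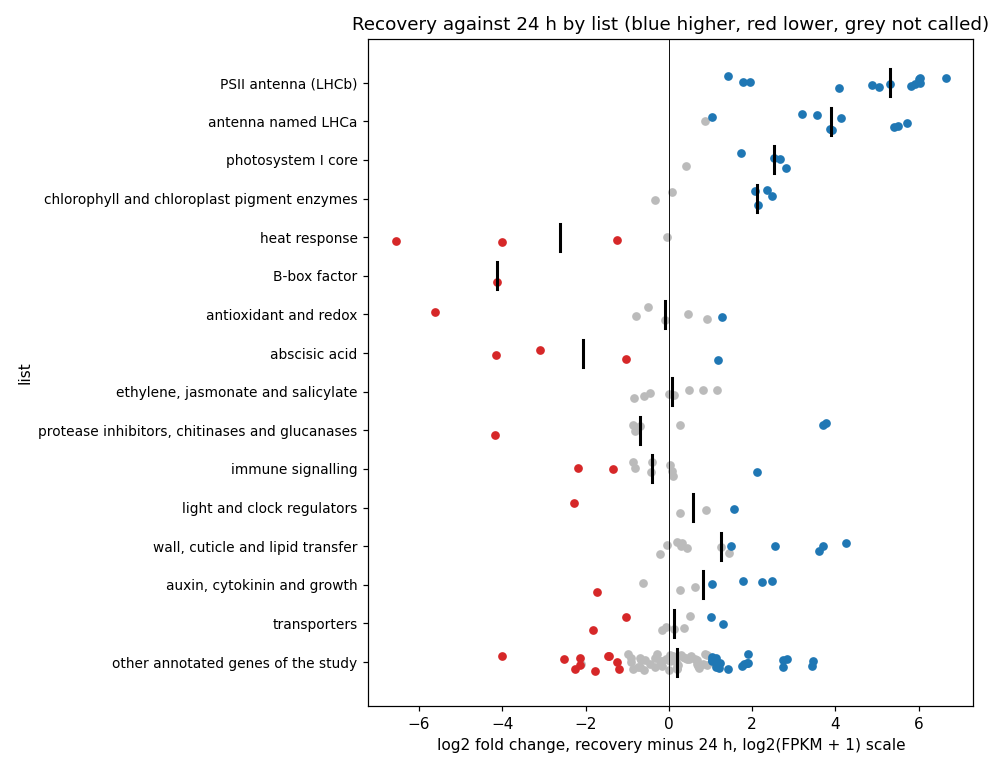
Log2 fold change of recovery minus 24 h on the log2(FPKM + 1) scale, with each of the 185 tested genes of the study as a point in the row of its list (blue called higher, red called lower, grey not called) and the median of a list as a black bar. The 4 lists named LHCb, LHCa, photosystem I core, and chlorophyll and chloroplast pigment enzymes hold 13, 9, 4 and 4 of the 65 genes that were higher. They hold no gene that was lower.

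**Figure D5:**
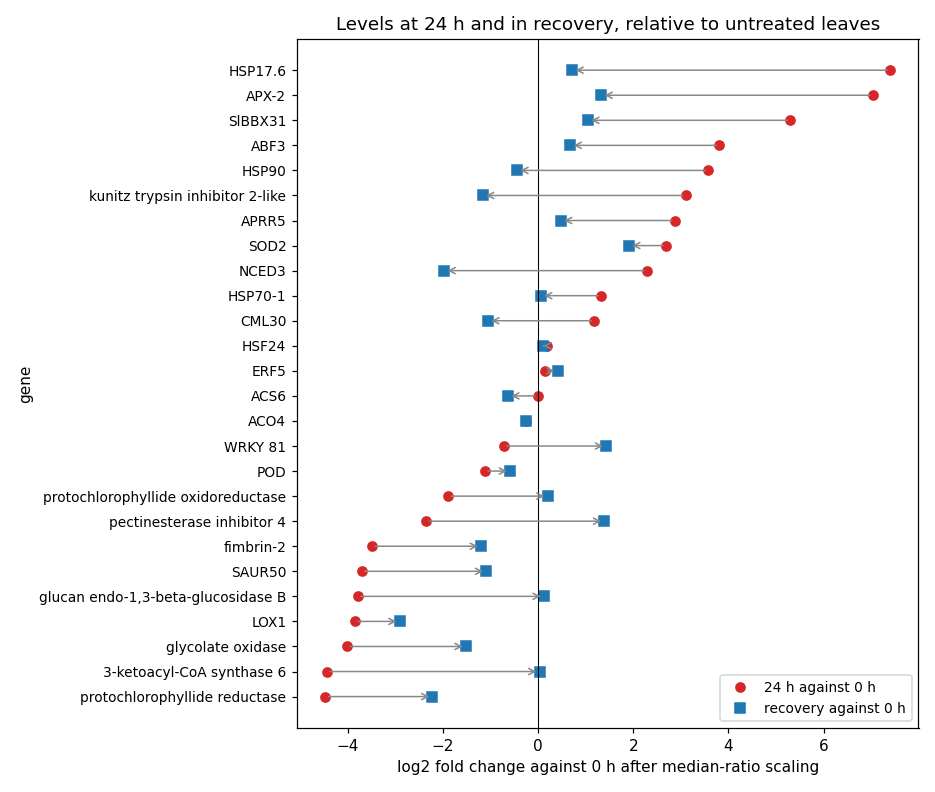
Log2 fold change against 0 h after median-ratio scaling, at 24 h (red circle) and in recovery (blue square), for 26 named genes, with an arrow from the former to the latter. SlBBX31, ABF3 and HSP17.6 ended 1.05, 0.68 and 0.72 above 0 h and were not called different from it, SOD2 stayed at 1.91, and LOX1 and glycolate oxidase ended at -2.91 and -1.52.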

How the data were processed

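RNA of leaves was sequenced in 18 heat libraries (6 groups of 3). The deposited values are FPKM per gene, made by the authors with Trimmomatic, TopHat (stranded, 1 place kept for each read) and Cuffdiff on the ITAG4.0 tomato annotation. Columns were matched to samples by name, and groups come from the labels. Count models do not suit FPKM, so limma 3.58.1 in R 4.3.3 was run on log2(FPKM + 1), which understates changes of low genes. The fit had 6 group means and empirical Bayes with a trend, over genes that reached 1 FPKM in 3 or more libraries, with Benjamini-Hochberg adjustment. It was run on simulated data with independent values and 1 spread per gene. In the real data the median SD of log2(FPKM + 1) ranged from 0.153 at 0 h to 0.469 at 12 h. The simulation thus checks the code and not the error rate in these data. The exact two-sided permutation test of 3 libraries against 3 has 20 relabellings and cannot go below 0.1. Where libraries are not from separate plants, p-values measure only the spread between them.

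Members and lists were chosen with earlier results of these data known, so lists are described by counts and medians. Genes given in full were those with a symbol in the study, up to 3 members of each other list with the largest change in each direction, and the largest changes among all genes, with at most 2 unannotated IDs each way. A few other list members were named after their values were seen. Gene names came from the study, since 0 IDs matched the RefSeq table at hand. Keyword lists, promoter motifs, coordinates and sequences were not used here, nor was the drought table.

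Alternatives were a pseudocount of 0.1, no filter, median-ratio scaling, a fit of the 6 libraries alone, a replicate block, leaving out each library, no minimum fold change, no variance trend and ratios of mean FPKM. Equal FPKM sums and a restriction to genes above 0 in all 6 libraries were added after seeing the data.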

Additional observations from a re-analysis of the deposited data

How the results depend on the processing

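The number of genes called higher in recovery (3034) ranged from 2217 to 3624, and the number called lower (3104) from 2633 to 3296, when 1 library was left out. Counts of higher and lower genes were 3955 and 3836 with a pseudocount of 0.1, 3300 and 3342 with median-ratio scaling, 2940 and 3093 without a filter, 2860 and 3066 in a fit of the 6 libraries alone, and 4196 and 4611 with no minimum fold change. Of 95 named genes 67 were called, beside 16.0% of all genes called higher and 16.4% called lower. The 95 include members picked for the largest change in these data, so a high count was built in. Of the 67 calls, 51 were kept in every planned fit. Without replicate 3 of heat 24 h, 11 calls were lost, and without replicate 1 of recovery 9. Leaving out any 1 of the other libraries of these groups lost 5 to 7. The fit of the 6 libraries alone lost 9 and gained 1. With no filter 4 were lost, and a pseudocount of 0.1 lost 1 and gained 4. Median-ratio scaling lost none and gained 2.

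The replicate block gave 3042 higher and 3106 lower genes and changed no call of a named gene. The deviations of same-numbered libraries from their group means correlated at 0.0826, 0.0681 and 0.0179, and those of other pairs at -0.0668 to -0.00557. Every library thus correlated best with its own number, but all these correlations were weak. Deviations from the mean of a group depend on each other, so they cannot show a pairing, and the design gives none.

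Changes of sign were seen in genes that were not called. With a library left out, values ranged from -0.2 to 0.17 for HSF24, from -0.32 to 0.32 for ACO4, from -0.95 to 0.92 for ERF5, from -0.01 to 0.83 for JAR1-like, from -0.1 to 0.51 for endochitinase 3-like, from 0 to 0.2 for EIX1, from -0.22 to 0.47 for WRKY 46, from -0.54 to 0.03 for SBT1.9, from -0.63 to 0.44 for pectinesterase 53 and from -0.31 to 0.05 for nitrate transporter 2.7. Pectinesterase 53 also turned to 0.13 with a pseudocount of 0.1 and to 0.01 with median-ratio scaling. The cause was not tested. Absolute depth is unknown, so low values carry no counting interval, and a value listed at 0 may be a failed estimate.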

Other observations

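Among 76 tested genes of the study outside the lists by role, 18 were higher in recovery and 10 were lower, beside 16.0% and 16.4% of all genes, with a median log2 fold change of 0.19. Without replicate 1 of recovery, 11 of them were higher, beside 2504 of all 18923 genes in that fit. The gene annotated as DNA damage-repair/toleration protein DRT100 (Solyc01g086920.3) had 4.00, 5.49 and 3.79 FPKM in replicates 1 to 3 of heat 24 h and 85.7, 60.3 and 37.96 FPKM in recovery, a rise by 3.46 (limma adjusted p = 4.32e-05). DEA1 (Solyc08g078900.1) had 0, 0 and 0.322 FPKM at 24 h and 8.10, 8.22 and 4.94 FPKM in recovery, a rise by 2.85 (limma adjusted p = 0.00694). MYB13-like (Solyc06g083900.3), of the MYB family of transcription factors, had 26.03, 7.03 and 23.8 FPKM at 24 h and 6.23, 1.17 and 0.849 FPKM in recovery, and fell by 2.51 on the log2 scale (limma adjusted p = 0.00943). Values at 24 h and in recovery were separate in each of these 3 genes.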
